A study of Xenopus tropicalis with 12 samples.

Results

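The regions described here are bound by thyroid hormone (T3) receptors (TRs) and lie within 5 Mb of an end of one of the 10 *Xenopus tropicalis* chromosomes. Chromatin was taken from the hind limbs of stage 54 tadpoles, at least 5 pooled for a sample, and ChIP-seq was done with an antibody against TR. The tadpoles, wild type or TRα (-/-), had the same parents. The tadpoles were left without T3 or were given 10 nM T3 for 18 h, so that there were 4 conditions. TRα (-/-) tadpoles still carry the TRβ gene. For each condition, 3 libraries were sequenced as technical replicates of 1 sample, so the spread given below is technical and p-values measure only the spread between libraries.

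TRs are nuclear receptors that sit on DNA as heterodimers with the retinoid X receptor. They bind at T3 response elements, repress their target genes without T3 and activate them when T3 binds. Frogs carry a TRα gene and a TRβ gene, and T3 drives the metamorphosis of the tadpole, in which the hind limb grows and takes its adult form.

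Overlapping peaks from the 12 lists (1 bp or more in common) were joined into 189159 regions. Binding in a condition required peaks in 2 or 3 of the 3 libraries, and 22074 regions were bound in at least 1 condition. A chromosome was taken to run from its first base to the largest peak end on it in any library. By this rule 6916 of the 22074 TR-bound regions had their midpoint within 5 Mb of a chromosome end, and the other 15158 are called interior regions. Among the TR-bound regions, position alone chose those near ends. Being TR-bound itself rested on peaks in these same libraries. Coordinates are those of the Xenbase v9.1 assembly. The regions were not assigned to genes, since no annotation of that assembly was used here. No sequence is shown for the same reason.

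Libraries differed in depth, from 834029 to 6119057 fragments, and in the number of peaks, from 4645 to 42421. Peaks with a summit pileup (fragments over the highest point) of 3 or fewer made up 72.7% of the list of replicate 1 of wild type with T3 and 73.4% of that of replicate 1 of TRα (-/-) with T3. They made up 0 to 32.1% of the other lists. TRα (-/-) without T3 replicate 2 had the fewest fragments and peaks.

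TR-bound regions were concentrated near chromosome ends. They rest on peaks called without an input library, so TR binding and other recurring signal cannot be told apart. The ends held 31.3% of the TR-bound regions in 7.86% of the chromosome length (100 of 1272 Mb). Near ends there were 69.2 TR-bound regions per Mb, and in the interior 12.9 per Mb, a ratio of 5.35. In each library the regions with a peak were denser near ends. In wild type without T3, the 3 libraries had 49.4, 49.6 and 54.2 of the TR-bound regions per Mb near ends against 7.80, 7.94 and 8.79 per Mb in the interior. In wild type with T3, the densities near ends were 38.2, 43.1 and 47.6 per Mb against 6.14, 7.08 and 8.08 per Mb. In TRα (-/-) without T3, they were 31.4, 12.5 and 40.7 per Mb against 4.62, 1.75 and 6.27 per Mb. In TRα (-/-) with T3, they were 33.8, 41.2 and 46.8 per Mb against 5.55, 6.75 and 7.51 per Mb. The lowest density near ends, 12.5 per Mb in the library with the fewest peaks, was above the highest density in the interior of any library, 8.79 per Mb.

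The ratio of the density near ends to that in the interior lay between 5.90 and 7.17, and its mean on the log2 scale was 2.66, a 6.31-fold difference. It was above 1 in 12 of 12 libraries (exact two-sided sign-flip permutation test over libraries, p = 0.000488, the smallest that 12 libraries allow, adjusted p = 0.00269 over 11 tests by Benjamini-Hochberg). With the 4 conditions as the unit, the ratio was above 1 in 4 of 4, and the exact test gave p = 0.125, the smallest possible. Both tests counted peaks within the TR-bound regions, a set made from these same 12 lists. The ratios are thus not independent of each other, and values above 1 were likely from the start. When all peaks of a library were counted, in bound regions or not, the ratio was lower, from 1.97 to 5.12 with a median of 3.37, but was again above 1 in 12 of 12 libraries. The lowest values of this kind, 2.03 and 1.97, were those of replicate 1 of wild type and of TRα (-/-) with T3, the libraries whose lists consisted mostly of peaks of 3 or fewer fragments.

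The density fell gradually with distance from the end rather than in a step at 5 Mb. The first 1 Mb of the 20 ends held 87.4 TR-bound regions per Mb, the second 74.2, the third 69.0, the fourth 63.2 and the fifth 52.1 per Mb. Beyond the limit it was 51.1 per Mb from 5 to 6 Mb, 39.1 per Mb from 9 to 10 Mb and 15.0 per Mb from 19 to 20 Mb. More than 30 Mb from any end, in the middle of the 9 chromosomes long enough to have such a part, it was 6.30 per Mb. The first 1 Mb was thus 13.9 times as dense as the chromosome middles. Among all merged regions, bound in a condition or not, it was 1.69 times as dense, and among regions with a peak in 1 library 0.926 times. The curves of the 4 conditions had the same order at each of the first 10 steps, with wild type without T3 highest and TRα (-/-) without T3 lowest.

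**Figure D1:**
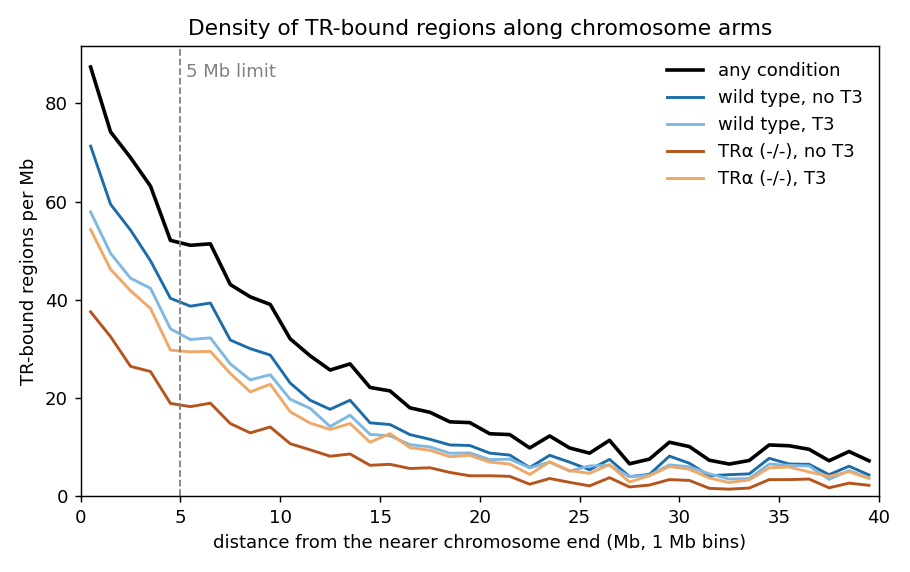
TR-bound regions per Mb (y axis) against the distance of the region from the nearer chromosome end in Mb (x axis, 1 Mb bins), for regions bound in any condition (black) and in each of the 4 conditions (colours); the dashed line marks 5 Mb. The black line falls from 87.4 per Mb in the first bin to 52.1 per Mb between 4 and 5 Mb and to 15.0 per Mb between 19 and 20 Mb, with no step at the dashed line.

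At the limit itself, both sides had similar values. The last 0.5 Mb inside it held 503 regions (50.3 per Mb), with a median of 6 libraries with a peak. The first 0.5 Mb outside it held 497 regions (49.7 per Mb), also with a median of 6 libraries. The region just inside lay on chromosome 9 from 4998957 to 5000171 and had a peak in 2 libraries. The region just outside lay at the other end of chromosome 9, from 75434644 to 75436137, and had a peak in 10 libraries.

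Each of the 20 ends was denser than the interior of its own chromosome, by a factor of 2.64 to 8.30 (median 5.39). Densities of the ends ran from 47.2 to 102.2 TR-bound regions per Mb with a median of 68.8, and those of the 10 interiors from 10.5 to 25.6 per Mb with a median of 12.4. The ranges of ends and interiors did not overlap. The densest end was the first 5 Mb of chromosome 5, with 511 regions. The least dense was the other end of the same chromosome, with 236 regions (47.2 per Mb). The first and the last 5 Mb overlapped in density. The former averaged 71.5 ± 16.4 per Mb (SD, n = 10 chromosomes) and the latter 66.8 ± 14.3 per Mb, and the former was denser on 6 of 10 chromosomes. The lowest factors belonged to the short chromosomes 10 (2.64 and 3.07) and 9 (2.92 at its beginning), whose interiors were the densest, 25.6 and 17.6 per Mb. By the largest peak end, chromosome 10 measured 39943330 bp and chromosome 9 measured 80436445 bp. In each of the 12 libraries, all 10 chromosomes had a ratio above 1. The lowest ratio of a library was on chromosome 10 in 12 of 12 libraries, from 3.15 to 3.77.

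**Figure D2:**
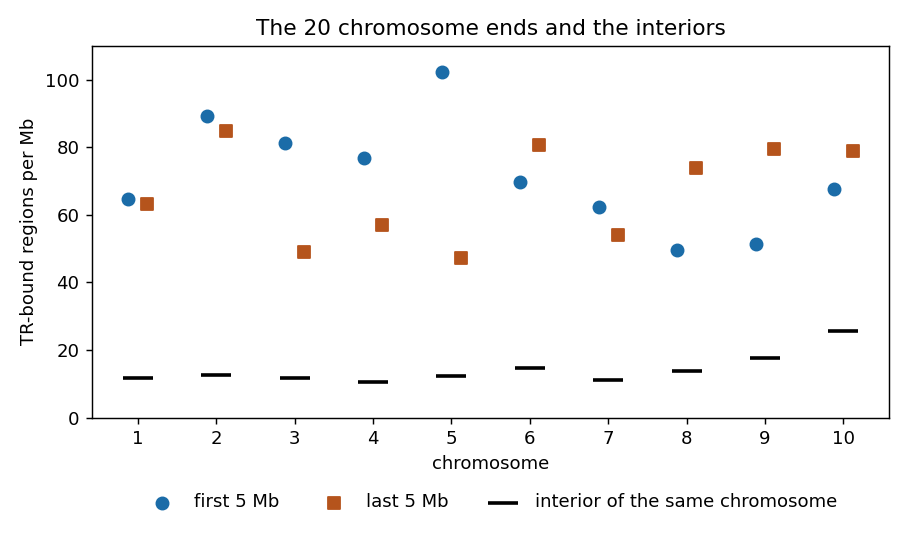
TR-bound regions per Mb (y axis) in the first 5 Mb (circles) and the last 5 Mb (squares) of chromosomes 1 to 10 (x axis), beside the interior of the same chromosome (short horizontal lines). All 20 ends lie between 47.2 and 102.2 per Mb, and the interiors between 10.5 and 25.6 per Mb.

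The regions near ends stood closer together than interior regions, which their higher density by itself implies. Whether spacing differed beyond density was not tested. The median distance from a region near an end to its nearest TR-bound neighbour was 5519 bp (quartiles 2655 and 10086 bp), and in the interior it was 13409 bp (quartiles 5365 and 36942 bp). A neighbour within 5 kb was present for 45.2% of the regions near ends and for 23.5% of interior regions. Widths differed little. The median region was 736 bp wide near ends and 756 bp wide in the interior. The ratio of median peak widths per library lay between 0.973 and 1.10 and was above 1 in 10 of 12 libraries.

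The ratio of densities was larger for regions found in more libraries. Among the 155276 regions with a peak in 1 library, the density near ends was 0.940 times that in the interior. The ratio was 2.44 for a peak in 2 libraries, 5.05 for 6 libraries and 8.27 for all 12. Thus 41.4% of the regions with a peak in all 12 libraries lay near an end (690 of 1668), against 7.42% of the regions of 1 library. Of the regions near ends, 9.98% had a peak in all 12 libraries, against 7.56% of all TR-bound regions and 6.45% of interior regions, and the median number of libraries was 7 near ends and 5 in the interior. Peaks were called without an input library, so TR binding and other signal that recurs near ends cannot be told apart.

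**Figure D3:**
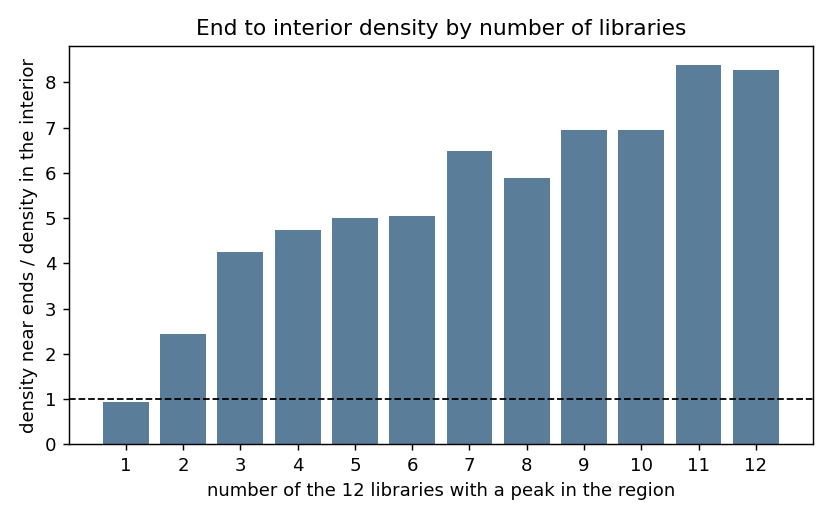
Ratio of the density of merged regions near ends to that in the interior (y axis) by the number of the 12 libraries with a peak in the region (x axis); the dashed line marks equal density. The bar for 1 library stands at 0.940, just under the line, and the bars for 11 and 12 libraries at 8.39 and 8.27.

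Peaks near ends were also stronger. Strength was ranked within each library, because pileup and q value depend on depth: each peak in a TR-bound region was given the percentile of its q value among such peaks of its library. In wild type without T3, the median percentile near ends was 58.3, 58.4 and 58.6 in the 3 libraries, and in the interior 46.1, 46.0 and 46.1. The lowest medians near ends were those of TRα (-/-) without T3 (54.6, 52.3 and 56.5 against 47.4, 48.6 and 46.5 in the interior). The difference between ends and interior was 3.72 to 12.5 percentile points, with a mean of 10.5, and was above 0 in 12 of 12 libraries (exact two-sided sign-flip permutation test, p = 0.000488, adjusted p = 0.00269). With the 4 conditions as the unit, the exact test gave p = 0.125, the smallest that 4 values allow. Both tests ranked peaks within the TR-bound regions, a set made from these same 12 lists. The differences of the libraries are thus not independent of each other. When each library was cut to its 4645 strongest peaks, the difference shrank to 1.05 points (exact sign-flip permutation test, adjusted p = 0.175). Median fold enrichment over the local background, a ratio that the peak caller reports, was 1.04 to 1.16 times as high near ends as in the interior.

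Strength and position were graded together. The peaks of each library were ranked by q value and cut into 5 groups of equal number. In the weakest group the ratio of densities was 0.941 to 3.07 (median 1.47), and in the strongest it was 4.92 to 8.81 (median 7.45). The strongest group had the higher ratio in 12 of 12 libraries, and the ratio rose at each step between groups in 10 of 12. Among the regions near ends, the mean percentile of a region over the libraries with a peak had a median of 48.6 in the outermost 1 Mb and 42.6 between 4 and 5 Mb. Between 9 and 10 Mb it was 39.3.

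Among the regions near ends with a peak in all 12 libraries, the best-ranked lay on chromosome 9 from 80023984 to 80024462, 0.412 Mb from the end. Its summit pileup was 520, 770 and 1186 fragments in wild type without T3 and 190, 366 and 438 with T3. The TRα (-/-) libraries had 218, 153 and 587 fragments without T3 and 215, 560 and 794 with T3. Pileup is not normalized for depth, and in 11 of 12 libraries this region ranked above the 99.9th percentile. The next lay on chromosome 5 from 145703921 to 145705801, 0.731 Mb from the end, with 134 to 1157 fragments. The third, with 64 to 336 fragments, lay on chromosome 7 from 1599438 to 1601132. Of the regions with a peak in all 12 libraries, the one nearest to an end was on chromosome 10 from 6443 to 7111, with 4 to 44 fragments.

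To see whether T3 changed binding near ends, the regions bound with and without T3 were compared first. Wild-type libraries had 3080104 to 6119057 fragments without T3 and 1055706 to 2307377 with T3. TRα (-/-) libraries had 834029 to 3000220 without T3, the lowest of them with 4645 peaks, and 940383 to 2851627 with T3. The part of depth in the numbers of regions bound with and without T3 was not tested. In wild-type hind limb, 5464 of the 6916 regions near ends (79.0%, against 71.8% of all TR-bound regions) were bound without T3. Binding with T3 was found at 4564 (66.0%, against 61.3% of all). Under both treatments 3746 were bound (54.2%, against 45.7% of all), 1718 only without T3 (24.8%, against 26.1%) and 818 only with T3 (11.8%, against 15.6%). In TRα (-/-) hind limb, 2816 regions near ends (40.7%) were bound without T3 and 4207 (60.8%) with T3, against 33.9% and 56.0% of all TR-bound regions. Here 2318 were bound under both treatments (33.5%, against 26.6%), 498 only without T3 (7.20%, against 7.31%) and 1889 only with T3 (27.3%, against 29.4%). Regions near ends were thus bound under both treatments more often than interior regions. Of those bound in wild type, 59.6% (95% Wilson confidence interval 58.4 to 60.8%) were bound under both treatments, against 48.7% (47.9 to 49.6%) in the interior. The TRα (-/-) shares were 49.3% (47.8 to 50.7%) and 38.4% (37.4 to 39.4%). These intervals cover counting error only. With the 4645 strongest peaks of each library, the differences between ends and interior fell from 10.9 points in both genotypes to 3.13 points in wild type and 2.77 points in TRα (-/-). Binding that came or went with T3 in both genotypes was as rare near ends as elsewhere. Near ends 131 regions (1.89%, against 2.03% of all) were bound only with T3 in both genotypes and 121 (1.75%, against 1.77%) only without T3 in both.

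The ratio of densities near ends and in the interior was lower with T3 in the libraries as deposited, by an amount that depended on which peaks were counted. In wild type it was 6.33, 6.25 and 6.16 without T3 and 6.22, 6.09 and 5.90 with T3, so that the ranges overlapped. The difference on the log2 scale was -0.04 (exact two-sided permutation test, p = 0.2, adjusted p = 0.244, 3 libraries against 3, for which 0.1 is the smallest p). For TRα (-/-) the ratio was 6.81, 7.17 and 6.50 without T3 and 6.09, 6.10 and 6.23 with T3, with no overlap. There the difference was -0.15 (exact permutation test, p = 0.1, adjusted p = 0.157). With all peaks counted, the TRα (-/-) ranges overlapped (3.30 to 5.12 without T3, 1.97 to 3.76 with T3). The wild-type ranges then did not (3.44 to 4.53 and 2.03 to 2.74). Within the TR-bound regions, the mean difference over both genotypes was -0.10, a factor of 0.935 (exact permutation of treatment within genotype, p = 0.01, adjusted p = 0.0367). Under other settings the difference was larger, with values of -0.65 with 1 library required, -0.64 with all peaks counted (exact permutation tests, adjusted p = 0.0367 for each) and -0.18 with peaks within 500 bp merged (exact permutation test, adjusted p = 0.011). It did not hold under further changes. With peaks of at least 4 fragments only, the difference was 0.03 (exact permutation test, adjusted p = 0.693), and without the 3 libraries with the fewest fragments it was -0.04 (exact permutation test, adjusted p = 0.183). Leaving out any of the 6 libraries with T3 gave -0.08 to -0.06 (exact permutation tests, adjusted p from 0.066 to 0.226), and leaving out chromosome 5 gave -0.09 (exact permutation test, adjusted p = 0.055). Over both genotypes, the difference in strength between ends and interior was 1.56 points higher with T3 (exact permutation test, p = 0.29, adjusted p = 0.319). The genotypes went in opposite directions. In wild type the mean of 3 libraries was 12.4 points without T3 and 11.5 with T3, and in TRα (-/-) it was 6.97 and 10.96. The T3 effect was 4.86 points higher in TRα (-/-) than in wild type (exact permutation test, p = 0.1, not among the 11 adjusted tests).

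Between the genotypes, with all peaks of each library, wild-type regions near ends were more often bound in TRα (-/-) hind limb too than those in the interior. Bound in both genotypes, under either treatment, were 4071 of the regions near ends (58.9%, against 50.7% of all TR-bound regions). In wild type only, 2211 were bound (32.0%, against 36.7%), and in TRα (-/-) only 634 (9.17%, against 12.6%). Of the wild-type regions near ends, 35.2% (34.0 to 36.4%) were not bound in TRα (-/-), against 45.3% (44.5 to 46.2%) in the interior. Without T3 these shares were 53.7% near ends and 61.7% in the interior, and with T3 they were 31.0% and 41.4%. With the 4645 strongest peaks of each library, however, the share not bound in TRα (-/-) was 0.247 percentage points higher near ends than in the interior. In the opposite direction, 13.5% of the TRα (-/-) regions near ends and 23.2% of those in the interior were not bound in wild type. Bound in all 4 conditions were 2022 regions near ends (29.2%, against 23.1% of all). In each of the 6 TRα (-/-) libraries the share of wild-type regions with a peak was higher near ends. It was 46.5, 19.3 and 60.6% near ends against 37.1, 14.8 and 50.7% in the interior without T3. With T3 it was 49.0, 59.7 and 67.6% against 40.8, 51.3 and 57.6%. The converse share, of TRα (-/-) regions with a peak, was likewise higher near ends in each of the 6 wild-type libraries. It ran from 61.3 to 83.2% near ends and from 50.9 to 74.5% in the interior.

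The genotype difference in density was small and its call depended on the setting. Within the TR-bound regions, without T3, the ratio of ends to interior was higher in each TRα (-/-) library (6.50 to 7.17) than in each wild-type library (6.16 to 6.33), by 0.13 on the log2 scale (exact permutation test, p = 0.1, adjusted p = 0.157). With all peaks counted, these ranges overlapped (3.30 to 5.12 in TRα (-/-), 3.44 to 4.53 in wild type), and the difference was 0.017. With T3 the ranges within the TR-bound regions overlapped, and the difference was 0.02 (exact permutation test, p = 0.4, adjusted p = 0.4). Over both treatments it was 0.07 (exact permutation of genotype within treatment, p = 0.02, adjusted p = 0.055). That value lay just above the threshold, and it passed with peaks within 500 bp merged (0.10, exact permutation test, adjusted p = 0.011), in 2 Mb windows, without the 3 shallowest libraries and in 7 of 25 fits that left out a library, a replicate number or a chromosome. With the 4645 strongest peaks of each library, the direction turned, to -0.10 (exact permutation test, adjusted p = 0.0275). The T3 effect differed between the genotypes by -0.11 on the log2 scale, which did not pass (exact permutation test, p = 0.16, adjusted p = 0.220), but without wild type with T3 replicate 3 it was -0.19 and passed (exact permutation test, adjusted p = 0.0183). Over both treatments, the difference in strength between ends and interior differed by -2.99 points in TRα (-/-) minus wild type (exact permutation test, p = 0.025, adjusted p = 0.055). Most of this lay without T3, where the mean was 6.97 ± 3.15 points (SD, n = 3 libraries) in TRα (-/-) and 12.4 ± 0.148 in wild type. With T3 the means were 10.96 ± 0.695 and 11.5 ± 0.829. The genotype difference over both treatments passed in 14 of the 25 fits that left something out. Under 6 other settings it also passed, there with -4.09 to -2.62 points. It turned to 0.90 points with the 4645 strongest peaks of each library (exact permutation test, adjusted p = 0.477). Without T3, wild-type libraries had 3080104 to 6119057 fragments and TRα (-/-) libraries 834029 to 3000220, and the part of depth in these differences was not tested.

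**Figure D4:**
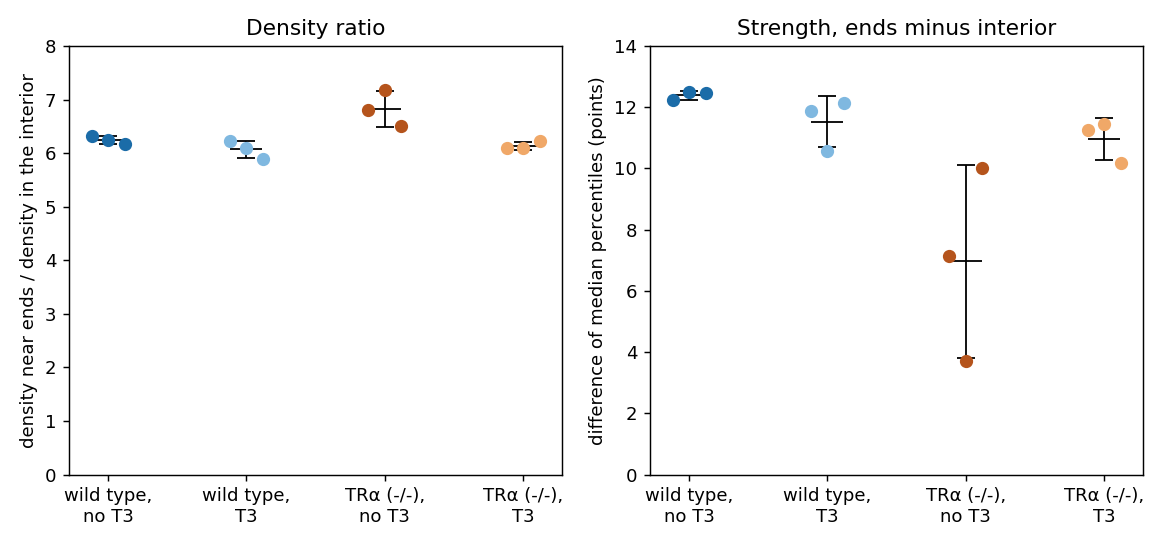
Left, ratio of the density of TR-bound regions near ends to that in the interior for each of the 12 libraries; right, median q value percentile of peaks near ends minus that of interior peaks, in percentile points. Points are libraries, and bars are the mean and SD of 3 technical replicate libraries. All ratios lie between 5.90 and 7.17, and the lowest difference in strength, 3.72 points, is that of TRα (-/-) without T3 replicate 2.

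Since regions near ends were stronger, retention of binding was also compared among regions of similar strength. Regions bound in a reference condition were put into 4 strength classes of equal size by their mean percentile in the libraries of that condition alone. Among wild-type regions without T3, the share also bound in TRα (-/-) without T3 rose with strength from 13.6% in the weakest class through 25.5 and 45.1% to 81.1% in the strongest near ends. In the interior it rose from 12.3% through 23.5 and 46.4% to 82.0%. Within each of these classes the 95% Wilson intervals of ends and interior overlapped. With T3, 33.1% of the weakest class near ends and 25.9% in the interior were bound in TRα (-/-), and their intervals did not overlap (29.98 to 36.4% and 24.2 to 27.6%). In the strongest class the shares were 95.5 and 95.6%. Retention with T3 of regions bound without T3 also rose with strength. In wild type it ran from 32.3 to 96.5% near ends and from 28.7 to 96.5% in the interior, and in TRα (-/-) from 59.1 to 98.3% and from 52.5 to 97.2%. Of the 16 comparisons of ends with interior, the intervals, which describe counting error and are no test, overlapped in 15. Overlap of intervals does not show that the shares were equal. The share was higher near ends in 12 of 16, among them 4 of 4 classes for retention with T3 in TRα (-/-), and the differences ran from -2.98 to 7.21 percentage points with a median of 1.25.

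**Figure D5:**
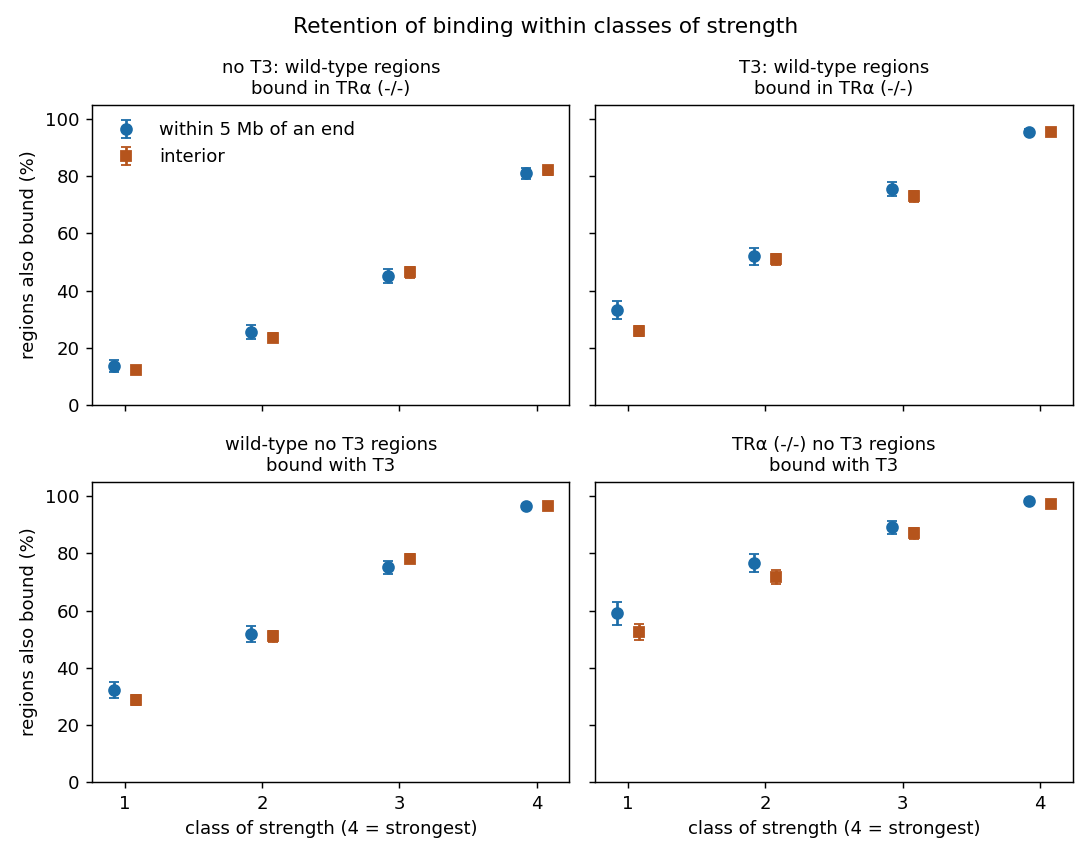
Share of regions bound in the reference condition that were also bound in the other condition (y axis, %) by class of strength in the reference condition (x axis, 1 is the weakest and 4 the strongest), for regions near ends (circles) and in the interior (squares), with 95% Wilson intervals. The share rises with strength in each panel, from 13.6 to 81.1% near ends in the upper left, and circles and squares lie within 7.21 percentage points of each other.

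Regions that followed genotype without exception were few. Near ends, 16 regions had 6 of 6 wild-type libraries with a peak and 0 of 6 TRα (-/-) libraries (0.231% of the regions near ends, against 0.195% of all TR-bound regions). They belonged to the 2085 regions near ends found in every wild-type library. In the interior, 27 of the 3051 regions found in every wild-type library had this pattern, a share no lower than that near ends. The 16 regions near ends lay on all 10 chromosomes, 7 of them within 1 Mb of the end. Of all 6916 regions near ends, 1748 lay within 1 Mb. The best-ranked lay on chromosome 5 from 146366180 to 146366387, 0.0697 Mb from the end, with 37, 41 and 64 fragments at its summit without T3 and 22, 38 and 36 with T3. The next lay on chromosome 1 from 4488329 to 4488978, with 17, 12 and 26 fragments without T3 and 7, 9 and 12 with T3. The third lay on chromosome 3 from 3690248 to 3690469, with 13, 12 and 26 fragments without T3 and 6, 7 and 15 with T3. None of the 3 had a peak in any TRα (-/-) library, and whether fragments below the calling limit lay there is not shown by peak lists. No region near ends had the opposite pattern (0, against 0% of all), for which a peak in the library with 4645 peaks would have been needed. With replicate 2 of each condition left out, 54 regions near ends had a peak in the 4 wild-type libraries and in none of the 4 TRα (-/-) libraries, and 3 had the reverse. In the interior 119 and 8 regions had these patterns, so the regions near ends made up 31.2% and 27.3% of them. The first share was close to the 31.3% of all TR-bound regions that lay near ends. The second rests on too few regions to compare. No region near ends had a peak in all 6 libraries without T3 and in none with T3 (0% of all). The reverse held for 1 region (0.0145%, against 0.00906% of all), on chromosome 8 from 1119320 to 1119911. It had 5, 21 and 13 fragments in wild type with T3 and 7, 8 and 13 in TRα (-/-) with T3.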

How the data were processed

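TR ChIP-seq was analysed in the 12 libraries described above. Per the labels and methods, the authors mapped reads to Xenbase v9.1 (Bowtie2 2.3.4.1), took out redundant reads with Samtools, and ran MACS2 2.1.1.20160309 on each library with no control and a q value cutoff of 0.05 (versions from the submitters' processing notes). The deposited lists give the position and length of a peak, and its summit pileup as a signal in fragments that is not scaled to depth. The deposited lists also hold −log10 p-values, −log10 q-values and fold enrichment, which is a ratio to the regional background. Fragments after filtering, from the file headers, gave the depth. Its part in which weak regions were detected was not tested. A region without a peak was not detected at that depth.

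Peaks were merged and counted with Python 3.11.15 (numpy 2.4.6, pandas 2.3.3, scipy 1.17.1). Groups and replicate numbers came from the sample titles. Exact two-sided permutation tests over libraries were run on the log2 ratio of densities and on the difference of median percentiles, with Benjamini-Hochberg adjustment over 11 tests and a threshold of 0.05. Shares of regions were not tested, since regions are not replicates. The code was tested on simulated data. Named regions are, by rule, up to 3 of the best mean percentile for each pattern, the region with a peak in all 12 libraries nearest to an end, and the densest and least dense ends. The choice of the regions, lists and tests was made with earlier results of these data known. Alternatives were 1 or 3 libraries required, q values below 0.01 or 0.001, merging within 500 bp, a pileup of at least 4, each library reduced to its 4645 strongest peaks, windows of 2 Mb, 10 Mb or 5% of the chromosome, all peaks counted, percentiles of fold enrichment, each chromosome, library and replicate number left out, and the replicate block. Strength classes, and leaving out the 3 libraries with the fewest fragments, were added after seeing the data. The planned use of reference chromosome lengths could not be run, since no genome of the v9.1 assembly was used here.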

Additional observations from a re-analysis of the deposited data

How the results depend on the processing

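The higher density near ends held under 12 of 12 alternatives (log2 ratio 1.69 to 3.12, that is 3.22- to 8.72-fold) and on leaving out any library, replicate number or chromosome (2.61 to 2.76). Except with 1 library required and with all peaks counted (1.69 for each), these counts again used regions chosen from the same lists. Values above 0 were thus likely from the start. Among regions with a peak in 1 library, the ratio of densities was 0.940. The difference in strength kept its call under 11 of 12 alternatives and on leaving out (9.33 to 11.05 percentile points). It was 25.5 with 1 library required and 1.05 with the same number of peaks per library. The T3 and genotype effects were less stable, and the causes were not tested.

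On the log2 scale, the T3 effect on the ratio over both genotypes was -0.026 with 3 libraries required, -0.027 at q below 0.01, 0.022 at q below 0.001, 0.032 with a pileup of at least 4, 0.011 with the same number of peaks and -0.044 without the 3 shallowest libraries (-0.13 to -0.040 on leaving out). It was larger, and past the threshold, with 1 library required (-0.65), all peaks counted (-0.64) and merging within 500 bp (-0.18). In wild type it was -0.76 with 1 library required, -0.74 with all peaks counted, 0.013 with 3 libraries required, 0.047 at q below 0.01, 0.081 at q below 0.001 and 0.12 with a pileup of at least 4 (-0.078 to 0.038 on leaving out, reversed at 0.0074 without replicate 2 with T3 and at 0.038 without replicate 3 with T3). For TRα (-/-) it was -0.54 with 1 library required, -0.54 with all peaks counted and 0.058 with the same number of peaks (-0.22 to -0.062 on leaving out). The genotype effect over both treatments passed the threshold with peaks within 500 bp merged (0.10), in 2 Mb windows (0.090) and without the 3 shallowest libraries (0.068), and in the opposite direction was -0.10 with the same number of peaks (0.033 to 0.10 on leaving out, past the threshold in 7 of 25). With T3 it was -0.012 at q below 0.01, -0.013 at q below 0.001, -0.015 with a pileup of at least 4 and -0.052 with the same number of peaks. Leaving out gave -0.061 to 0.069, with -0.0079, -0.028 and -0.061 without wild-type replicates 1, 2 and 3 with T3 and -0.032 without replicate 3 of each condition. Without T3 it was 0.010 with 1 library required, 0.017 with all peaks counted and -0.15 with the same number of peaks (0.069 to 0.19 on leaving out). The interaction was 0.21 with 1 library required, 0.20 with all peaks counted and 0.10 with the same number of peaks (-0.19 to -0.045 on leaving out).

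In percentile points, the T3 effect on the difference in strength was -0.69 at q below 0.001, -1.49 with a pileup of at least 4, 8.54 with 1 library required (exact permutation test, adjusted p = 0.124) and 2.90 with merging within 500 bp (exact permutation test, adjusted p = 0.0367; 0.53 to 2.89 on leaving out). The genotype effect on it passed the threshold at -4.09 with 3 libraries required, -3.52 with merging within 500 bp, -3.26 in 2 Mb windows, -2.62 in windows of 5%, -3.22 with fold enrichment, -2.93 without the 3 shallowest libraries, and was 0.90 with the same number of peaks (-4.29 to -2.22 on leaving out, past the threshold in 14 of 25).

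The share of wild-type regions bound under both treatments differed between ends and interior by 28.0 points with 1 library required, 7.51 with 3, 9.003 at q below 0.01, 8.11 at q below 0.001, 15.6 with merging within 500 bp, 3.13 with the same number of peaks and 8.80 without the 3 shallowest libraries (8.78 to 11.5 on leaving out). The TRα (-/-) values were 25.5 with 1 library, 2.79 with 3, 7.42 at q below 0.001, 12.98 with merging, 8.36 with a pileup of at least 4, 2.77 with the same number of peaks and 7.63 without the 3 shallowest libraries (3.59 to 11.4 on leaving out). For wild-type regions not bound in TRα (-/-) they were -31.5 with 1 library, -5.96 with 3, -8.47 at q below 0.01, -7.59 at q below 0.001, -15.1 with merging and 0.247 with the same number of peaks (-10.9 to -7.51 on leaving out). The regions near ends numbered 20707 with 1 library required, 4152 with 3, 2519 with the same number of peaks, 3232 in 2 Mb windows and 11421 in 10 Mb windows (4904 to 6892 on leaving out).

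In the share of their regions per bin, deviations of same-numbered libraries of different conditions were weakly correlated (mean 0.0377 over 1267 bins of 1 Mb). The correlation ran from -0.063 to 0.171 and was above 0.1 in 3 of 18 pairs. For differently numbered libraries the mean was -0.018. Shares are scaled within a library and so leave out its number of regions. Whether depth bears on where the regions of a library lie was not tested. Replicate 3 had the most fragments in each condition (6119057 and 2307377 in wild type without and with T3, 3000220 and 2851627 in TRα (-/-)). Whether the numbers pair the samples is therefore not shown by these shares. With the replicate block the T3 effect over both genotypes was -0.10 (exact permutation test, p = 0.03125, adjusted p = 0.281). That p is the smallest 6 pairs allow, so no blocked test could pass after adjustment, and the block says nothing about stability. The part of depth in the detection of weak regions was not tested, and reference chromosome lengths were not run.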
